A study of Mus musculus with 8 samples.

Results

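Globin and erythroid genes were followed in CD11b+Gr-1hi and CD11b+Gr-1lo cells of sanroque mice. A list of 9 genes was matched by symbol, and 8 of them had a row among the 54188 genes of the deposited count table, namely Hba-a1, Hba-a2, Hbb-bs, Hbb-bt, Alas2, Slc4a1, Klf1 and Car1. Ahsp was not analysed here. Of these 8 genes, 6 passed the filter on low counts and were tested among 17650 genes. Klf1 and Car1 did not pass, and Alas2 and Slc4a1 passed only through their counts in the spleen, so a count of tested members is not evidence about the members as a whole.

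RNA was sequenced from myeloid cells that had been sorted from spleen (SP) or bone marrow (BM) of mice homozygous for the san allele of Roquin on the C57BL/6 background, aged approximately 20 weeks and labelled female. Libraries 5 and 6 came from SP Gr-1hi cells, 7 and 8 from SP Gr-1lo cells, 9 and 10 from BM Gr-1hi cells, and 11 and 12 from BM Gr-1lo cells. The Gr-1hi cells are labelled G-MDSC and the Gr-1lo cells M-MDSC, granulocytic and monocytic forms of myeloid-derived suppressor cells. All 8 libraries come from mice with the allele, with no wild-type library among them, and the comparison of SP with BM asks how cells of the same surface phenotype differ between the organs. The sort is described with antibodies to CD11b and Gr-1, and no antibody to red cells is named for it. An antibody to the red cell antigen Ter119 is listed among those the study used for flow cytometry in general.

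Adult hemoglobin is a tetramer of α chains, encoded in mice by Hba-a1 and Hba-a2, and β chains, encoded in C57BL/6 mice by Hbb-bs and Hbb-bt. Red cell precursors mature around macrophages in the bone marrow and, in mice, also in the red pulp of the spleen, where old red cells are taken up. Their globin transcripts outlast the loss of the nucleus and are carried into the blood by reticulocytes, while the transcription factor Klf1 acts in nucleated precursors. Alas2 makes the first precursor of heme in these cells, Slc4a1 is band 3, the anion exchanger of the red cell membrane, and Car1 is a cytosolic carbonic anhydrase.

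The libraries held 33453580 to 68316154 counts, so that a count of 0 allowed up to 0.0348 to 0.124 CPM, which are counts scaled to a common library size. The pair of SP Gr-1hi libraries differed most, where counts of replicates gave a chi-square of 66.7 per degree of freedom, against 18.9 to 21.3 elsewhere. Xist, expressed from the inactive X chromosome, was counted 12032 times in library 5 and 9898 times in library 7 but no more than 5 times elsewhere. The Y-linked gene Ddx3y had 0 counts in library 5 and 1595 to 4902 in each of the other 7, although the labels give female mice for all 8. By these 2 genes library 5 alone goes with the label, library 7 holds both transcripts, and the SP Gr-1hi libraries 5 and 6 are unlike. Results are therefore given also without libraries 5 and 7, which keeps libraries with Ddx3y and at most 5 counts of Xist. This leaves library 6 alone in SP Gr-1hi and library 8 alone in SP Gr-1lo cells, which are assumed to vary like the BM pairs, the only source of spread in that fit. Likewise, where 1 library is left out, the lone library of its group is assumed to vary like the other groups. Ly6g, the granulocytic antigen seen by the Gr-1 antibody, was at 330 to 801 CPM in Gr-1hi and 3.07 to 8.23 CPM in Gr-1lo libraries. Itgam, which encodes CD11b, was at 734 to 4904 CPM. In sorted bulk RNA, fewer cells of a type and less RNA per cell cannot be told apart.

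Upstream sequences are printed here for members that moved together, because they show how far the copies of each globin pair differ. RefSeq promoter windows on GRCm38.p6 matched 6 of the 9 listed genes, and each sequence is the 250 bases before the RefSeq start, 5′ to 3′ on the gene's strand. Capitals mark 4 motifs on either strand: GATAA (the GATA motif), CACCC (the CACCC box), CCAAT (the CCAAT box) and TATAA (the TATA box). Their reverse forms read TTATC for the GATA motif, GGGTG for the CACCC box, ATTGG for the CCAAT box and TTATA for the TATA box, and neighbouring matches can run together. They lie at chr11:32296242-32296491 (plus strand) for Hba-a2, chr7:103827929-103828178 (minus strand) for Hbb-bs, chr7:103813924-103814173 (minus strand) for Hbb-bt and chrX:150547167-150547416 (plus strand) for Alas2.
Hba-a2: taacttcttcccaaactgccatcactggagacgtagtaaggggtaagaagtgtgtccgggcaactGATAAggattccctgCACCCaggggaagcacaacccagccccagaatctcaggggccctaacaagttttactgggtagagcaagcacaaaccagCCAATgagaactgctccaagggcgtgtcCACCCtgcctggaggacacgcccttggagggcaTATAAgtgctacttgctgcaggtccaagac
Hbb-bs: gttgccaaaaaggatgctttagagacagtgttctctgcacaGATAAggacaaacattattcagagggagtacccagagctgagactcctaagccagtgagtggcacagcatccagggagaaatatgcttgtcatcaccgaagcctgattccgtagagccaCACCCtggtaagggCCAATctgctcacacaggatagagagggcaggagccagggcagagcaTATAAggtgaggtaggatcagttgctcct
Hbb-bt: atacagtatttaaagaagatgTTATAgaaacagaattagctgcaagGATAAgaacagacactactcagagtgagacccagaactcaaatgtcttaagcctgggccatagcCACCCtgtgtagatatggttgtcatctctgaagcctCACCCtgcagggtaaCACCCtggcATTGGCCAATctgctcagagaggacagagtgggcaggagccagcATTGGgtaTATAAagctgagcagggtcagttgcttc
Alas2: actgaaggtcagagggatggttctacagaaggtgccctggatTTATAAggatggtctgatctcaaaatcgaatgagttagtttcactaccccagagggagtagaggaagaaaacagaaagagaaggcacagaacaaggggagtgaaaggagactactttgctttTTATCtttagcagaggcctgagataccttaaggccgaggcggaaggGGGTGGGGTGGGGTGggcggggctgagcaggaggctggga

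The window of Hba-a1 is not printed because it shared an unbroken run of 247 of 250 bases with that of Hba-a2. The 2 windows are offset, with the TATA box 27 bases before the start in Hba-a1 and 30 in Hba-a2. The bases outside the run are thus window ends and do not show a difference in sequence. Between Hbb-bs and Hbb-bt the longest identical run was 14 bases. All 4 globin windows held all 4 motifs, as did 0.968% of 32851 windows of the same length. Taken singly, the GATA motif stood in 22.6% of those windows, the CACCC box in 52%, the CCAAT box in 33.8% and the TATA box in 22.8%. In each globin window a TATA box began 27 to 30 bases, a CCAAT box 75 to 91 bases and a GATA motif 182 to 209 bases before the start. The window of Alas2 held all motifs but the CCAAT box, with 3 reverse CACCC boxes in a row from 40 bases before the start, and that of Klf1 held all but the TATA box. These matches are a description of letters in a window, and the GENCODE starts lie 3 to 168 bases further upstream.

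Globin transcripts were a small part of every library, and they were higher in SP than in BM. The summed counts of the 4 adult globin genes were 7156 in library 5, 22734 in 6, 7830 in 7, 19839 in 8, 941 in 9, 1056 in 10, 370 in 11 and 433 in 12. This amounted to 0.000986% to 0.0594% of all counts. In CPM, the sum was 7.88 ± 0.425 CPM (SD, n = 2) in BM Gr-1lo, 39.4 ± 5.95 in BM Gr-1hi, 198 ± 45.7 in SP Gr-1lo and 470.4 ± 360 in SP Gr-1hi cells. The order of the groups was thus BM Gr-1lo, BM Gr-1hi, SP Gr-1lo and SP Gr-1hi. The lowest SP library stood 3.79-fold above the highest BM library, whereas both SP groups overlapped, because library 5 was at 216 and library 6 at 725 CPM. From the lowest to the highest library the sum spanned 95.7-fold.

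**Figure D1:**
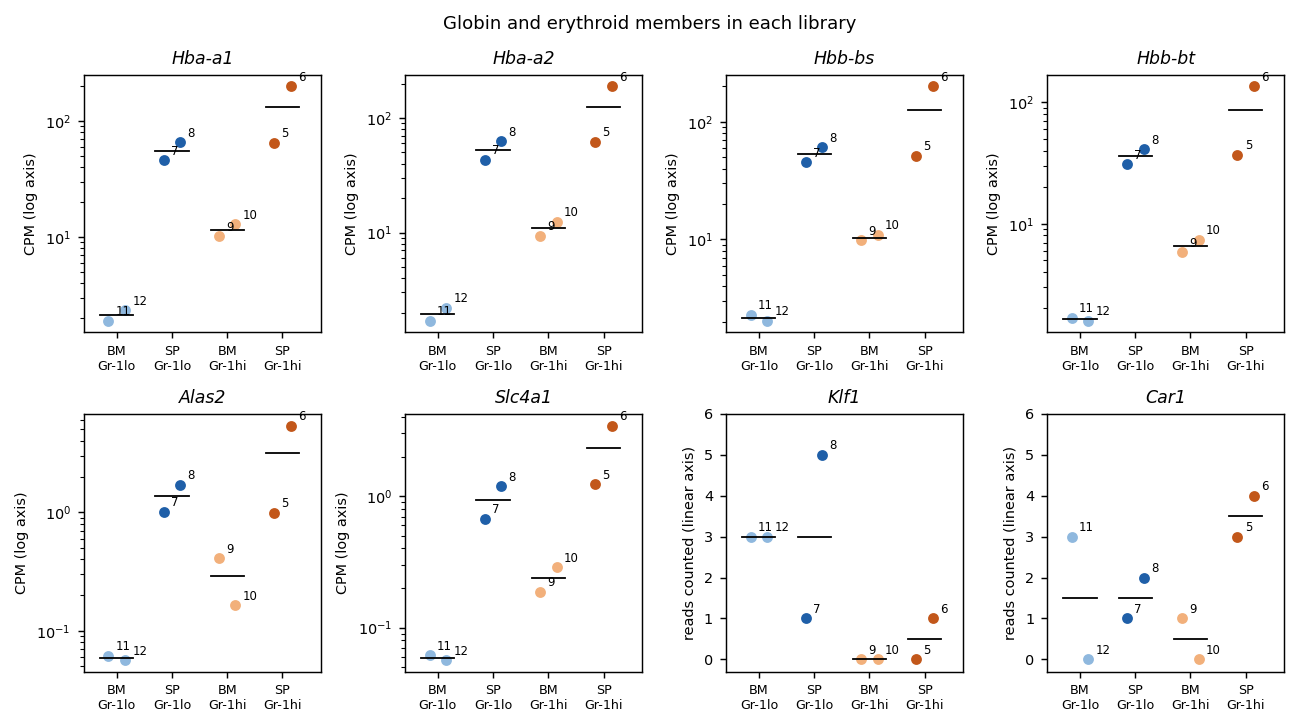
Members in each of the 8 libraries, by group, with the library number beside each point and a line at the mean of the 2 libraries; the first 6 panels show CPM on a log axis and those of Klf1 and Car1 show reads counted on a linear axis. In the first 6 panels all SP points lie above all BM points and library 6 is highest, while Klf1 and Car1 never pass 5 reads. How many of all genes separate SP from BM in this way was not counted.

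Among the α globin genes, Hba-a1 (ENSMUSG00000069919, chr11:32283511-32284465 on GRCm38, plus strand) was at 65.0 and 199.5 CPM in SP Gr-1hi, 45.8 and 65.4 in SP Gr-1lo, 10.1 and 12.9 in BM Gr-1hi, and 1.91 and 2.34 in BM Gr-1lo libraries. Hba-a2 (ENSMUSG00000069917, chr11:32296489-32297298, plus strand) was at 62.1 and 189 CPM, 43.1 and 62.5 CPM, 9.42 and 12.4 CPM, and 1.70 and 2.21 CPM in the same order. Every SP library exceeded every BM library for both genes, but how many of all genes did so was not counted. Library 5 lay between the SP Gr-1lo libraries. In Gr-1lo cells, Hba-a1 was 26.1-fold higher in SP than in BM (log2 FC 4.71, SE 0.61, adjusted p = 0.00892 by edgeR's quasi-likelihood test), and Hba-a2 was 26.9-fold higher (4.75, SE 0.61, adjusted p = 0.00909). In Gr-1hi cells both stood 11.5-fold higher in SP (3.52, SE 0.56, adjusted p = 0.00561 for Hba-a1, and 3.53, SE 0.56, adjusted p = 0.00576 for Hba-a2).

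Among the β globin genes, Hbb-bs (ENSMUSG00000052305, chr7:103826534-103828096, minus strand) was at 51.4 and 200.2 CPM in SP Gr-1hi, 45.2 and 60.7 in SP Gr-1lo, 9.79 and 10.9 in BM Gr-1hi, and 2.29 and 2.04 in BM Gr-1lo libraries. Hbb-bt (ENSMUSG00000073940, chr7:103812524-103813996, minus strand) was at 37.1 and 136 CPM, 31.1 and 41.3 CPM, 5.83 and 7.39 CPM, and 1.68 and 1.59 CPM in that order. Library 6 was again far above the rest, and library 5 lay between the SP Gr-1lo libraries. SP and BM did not overlap, and again the share of all genes with no overlap was not counted. In Gr-1lo cells Hbb-bs was 24.4-fold higher in SP (log2 FC 4.61, SE 0.70, adjusted p = 0.0190 by edgeR) and Hbb-bt 22.2-fold (4.47, SE 0.69, adjusted p = 0.0194). In Gr-1hi cells the corresponding values were 12.1-fold for Hbb-bs (3.60, SE 0.65, adjusted p = 0.00973) and 13.1-fold for Hbb-bt (3.71, SE 0.64, adjusted p = 0.00833).

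Alas2 (ENSMUSG00000025270, chrX:150547375-150570638, plus strand) had 33 and 169 counts in SP Gr-1hi, 48 and 147 in SP Gr-1lo, 11 and 4 in BM Gr-1hi, and 3 in each BM Gr-1lo library. This was 0.995 and 5.39 CPM, 1.01 and 1.70 CPM, 0.411 and 0.165 CPM, and 0.0615 and 0.0567 CPM. Slc4a1 (ENSMUSG00000006574, chr11:102348824-102366203, minus strand) had 41 and 108, 32 and 103, 5 and 7, and again 3 and 3 counts, or 1.24 and 3.44 CPM, 0.675 and 1.19 CPM, 0.187 and 0.289 CPM, and 0.0615 and 0.0567 CPM. Both genes followed the order of the globin genes at levels far below them, with BM Gr-1lo libraries at 3 counts. Alas2 was 22.3-fold higher in SP than in BM Gr-1lo cells (log2 FC 4.48, SE 1.001, adjusted p = 0.0417 by edgeR) and 10.8-fold higher in SP than in BM Gr-1hi cells (3.43, SE 0.86, adjusted p = 0.0182). Slc4a1 was 15.4-fold higher (3.95, SE 0.71, adjusted p = 0.0146) and 9.78-fold higher (3.29, SE 0.63, adjusted p = 0.00576).

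Klf1 (ENSMUSG00000054191, chr8:84901928-84905291, plus strand) had 0 and 1 counts in SP Gr-1hi, 1 and 5 in SP Gr-1lo, 0 and 0 in BM Gr-1hi, and 3 and 3 in BM Gr-1lo libraries. Car1 (ENSMUSG00000027556, chr3:14766216-14808368, minus strand) had 3 and 4, 1 and 2, 1 and 0, and 3 and 0 counts in that order. Neither gene could be tested, and a difference in Klf1 or Car1 between the groups was not detectable at this depth. Of other genes of the α and β globin clusters, 6 were looked up and none could be tested: Hbb-bh1, Hbb-bh2, Hbb-y, Hba-x and the θ globin genes Hbq1a and Hbq1b had at most 5 counts in any library, with Hbb-bh2 and Hbb-y at 0 throughout.

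Between the organs, all 6 tested members were called higher in SP, at an adjusted p up to 0.05 with a change of 2-fold or more. This held in Gr-1lo cells, where 4.06% of the genes tested were called (3.84% higher and 0.215% lower in SP), and in Gr-1hi cells, where 15.5% were called (14.0% higher and 1.48% lower). Alas2 and Slc4a1 were tested only through their counts in SP, and the 4 globin genes are 2 pairs that can share reads. The count of 6 and the median of the 6 are therefore not evidence about the members as a whole. The median log2 FC of the 6 was 4.55 in Gr-1lo and 3.53 in Gr-1hi cells, beside -0.01 and 0.03 over all genes tested. Without libraries 5 and 7, with the spread taken from the BM pairs alone, the log2 FC was 4.26 to 4.98 in Gr-1lo and 3.86 to 4.38 in Gr-1hi cells. The calls in Gr-1lo cells rested on few libraries: without library 11 or without library 12 no member passed the threshold (adjusted p = 0.0714 to 0.270, edgeR), although the log2 FC stayed at 3.89 to 4.96. Without library 8, Hba-a1 and Hba-a2 passed and the other 4 did not. Hbb-bs also failed without library 7, and Alas2 without 7, 9 or 10. In Gr-1hi cells the size of the difference depended on library 6. Without it the log2 FC fell to 2.43 for Hba-a1, 2.45 for Hba-a2, 2.25 for Hbb-bs, 2.43 for Hbb-bt, 2.31 for Slc4a1 and 1.69 for Alas2. The 4 globin genes and Slc4a1 were called in each fit that left out 1 library, and Alas2 was not called without library 6, 9 or 10 (adjusted p = 0.0543 without library 6).

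**Figure D2:**
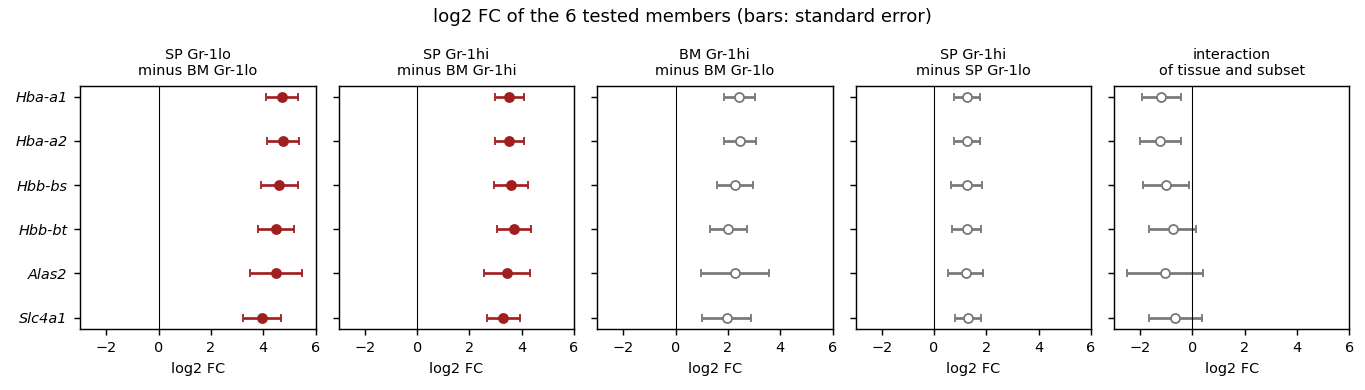
Log2 FC of the 6 tested members in the 4 comparisons and in the interaction of tissue and subset, with bars of 1 standard error; filled red points were called at the thresholds of the comparison and open grey points were not. All points for SP against BM are filled and lie between 3.29 and 4.75, whereas those for Gr-1hi against Gr-1lo are open and lie between 1.21 and 2.47.

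Between the subsets the differences were smaller. In BM, the log2 FC of Gr-1hi over Gr-1lo cells was 2.43 for Hba-a1 (SE 0.59, adjusted p = 0.00930 by edgeR), 2.47 for Hba-a2 (SE 0.60, adjusted p = 0.00938), 2.26 for Hbb-bs (SE 0.69, adjusted p = 0.0250) and 2.01 for Hbb-bt (SE 0.71, adjusted p = 0.0405). For Alas2 it was 2.26 (SE 1.30, adjusted p = 0.146) and for Slc4a1 1.95 (SE 0.93, adjusted p = 0.0860). With the stricter thresholds of adjusted p under 0.01 and more than 8-fold, 0 of the 6 members were called by edgeR and 0 by DESeq2, beside 16.7% of all genes (6.56% higher and 10.1% lower in Gr-1hi cells). At an unadjusted p under 0.05 there were 4, and at an adjusted p of 0.05 and a 2-fold change the 4 globin genes were called, beside 57.3% of all genes. The BM Gr-1hi libraries of these 4 genes lay above the BM Gr-1lo libraries, but how many of all genes did so was not counted.

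In SP, Hba-a1, Hba-a2, Hbb-bs and Hbb-bt had a log2 FC of Gr-1hi over Gr-1lo cells of 1.25 each (SE 0.50 to 0.58, adjusted p = 0.0623 to 0.0998 by edgeR). Alas2 stood at 1.21 (SE 0.67, adjusted p = 0.138) and Slc4a1 at 1.29 (SE 0.49, adjusted p = 0.0401). At the same thresholds 0 members were called by edgeR and 0 by DESeq2, beside 7.37% of all genes (4.44% higher and 2.93% lower), with 3 at an unadjusted p under 0.05. Slc4a1 alone was called at 0.05 and 2-fold, beside 49.6% of all genes. The size of the difference depended on library 6. Without it, the log2 FC was 0.22 for Hba-a1, 0.23 for Hba-a2, 0.03 for Hbb-bt, 0.37 for Slc4a1, -0.05 for Hbb-bs and -0.47 for Alas2. Without libraries 5 and 7, the log2 FC of the 6 members lay between 1.51 and 1.71. This sets library 6 against library 8, so it holds no replicate of either group.

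The interaction, the difference between Gr-1hi and Gr-1lo in SP minus that in BM, was negative for all 6 members and passed the threshold for none. It ran from -1.22 for Hba-a2 (SE 0.77, adjusted p = 0.335 by edgeR) to -0.66 for Slc4a1 (SE 1.01, adjusted p = 0.699). None was called by edgeR or DESeq2, beside 9.74% of all genes (7.74% positive and 2.00% negative), and 0 had an unadjusted p under 0.05. Without library 6 the values of the 4 globin genes were -2.38 to -2.06 and passed the thresholds, with library 5 alone in its group and all the spread taken from the other 3 groups. Without libraries 5 and 7 the values of the 6 members lay between -0.85 and -0.27.

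Levels of different genes are compared here per length, as TPM, in which counts are scaled by exon length and depth. The length is that of all exons of a gene together, 812, 667, 768 and 703 bases for Hba-a1, Hba-a2, Hbb-bs and Hbb-bt. Single transcripts of these genes have 699, 554, 628 and 703 bases, so ratios between genes depend on this choice. In SP Gr-1hi cells the mean TPM was 321 ± 217 (SD, n = 2) for Hba-a1, 371 ± 249 for Hba-a2, 321 ± 257 for Hbb-bs and 242 ± 186 for Hbb-bt. For Alas2 it was 2.60 ± 2.45 and for Slc4a1 0.943 ± 0.587. In BM Gr-1lo cells the globin genes were at 7.16 to 9.02 TPM, Alas2 at 0.0757 and Slc4a1 at 0.0372. Hbb-bt was the lowest of the 4 globin genes in every group by its mean, by less than the spread between libraries in SP Gr-1hi cells. The ratio of α to β globin TPM was 0.910 in library 11 and 1.17 to 1.45 in the other 7.

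The 2 genes of each globin pair can share reads, so their split is uncertain. Of the 101-base windows of the Hba-a2 transcript, 74.2% also stood in Hba-a1, and 56.3% of those of Hba-a1 stood in Hba-a2. For the β pair, 62.5% of the windows of Hbb-bs stood in Hbb-bt and 54.7% of those of Hbb-bt in Hbb-bs. As counted, Hba-a1 took 51.0% to 52.8% of the α counts in every library, and the exact 95% intervals of all 8 libraries overlapped. Hbb-bs took 56.3% to 62.7% of the β counts, again with overlapping intervals. Intervals and limits given here cover counting error only.

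The share of α among all adult globin counts, as deposited, differed between libraries. How far reads shared within a pair were kept is not known, and it bears on the level of this share. It was 58.9% (exact 95% interval 57.8 to 60.1) in library 5 and 53.6% (53.0 to 54.3) in library 6, a difference beyond counting error within the SP Gr-1hi group. In library 11 it was 47.6% (42.4 to 52.8), and in the other libraries it lay between 53.8% and 58.0%. The groups themselves overlapped.

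**Figure D3:**
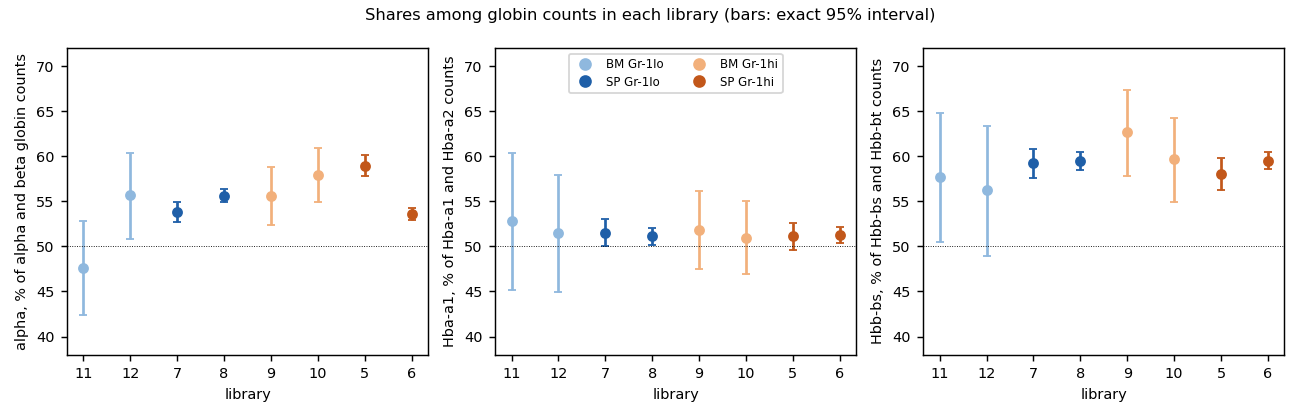
Share of α globin among adult globin counts (left), of Hba-a1 among α counts (middle) and of Hbb-bs among β counts (right) in percent for each library, with exact 95% binomial intervals, a dotted line at 50 and colors for the groups. The α share separates library 5 (58.9) from library 6 (53.6), while the intervals for Hba-a1 overlap in all 8 libraries.

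The proportion of Alas2 and Slc4a1 to globin varied far less between libraries than globin itself. Per 100 counts of Alas2 and globin together, Alas2 made up 0.459 (exact 95% interval 0.316 to 0.644) in library 5, 0.738 (0.631 to 0.857) in library 6, 0.609 in 7, 0.736 in 8, 1.16 in 9, 0.377 in 10, 0.804 in 11 and 0.688 in 12. By group the share was 0.742 in BM Gr-1lo, 0.746 in BM Gr-1hi, 0.700 in SP Gr-1lo and 0.671 in SP Gr-1hi cells. Slc4a1 made up 0.407 to 0.804 of each 100 counts in single libraries. For both genes the intervals of all 8 libraries overlapped, although those of the BM libraries were wide, from 0.142 to 2.00 for Alas2 in library 12. For Alas2 those of libraries 5 and 6 overlapped only from 0.631 to 0.644, and overlap does not show that shares are equal.

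The share of Klf1 was higher in BM Gr-1lo than in SP libraries, beyond counting error of the share. Klf1 itself had 6 counts in BM Gr-1lo and 6 in SP Gr-1lo cells, beside 803 and 27669 globin counts. The contrast in share thus reflects the globin counts and is no separate result for Klf1. In BM Gr-1lo cells, 6 counts of Klf1 stood beside 803 globin counts, a share of 0.742 (exact 95% interval 0.273 to 1.61) per 100. In the 4 SP libraries, 7 counts stood beside 57559 globin counts, a share of 0.0122 (0.00489 to 0.0251), and the intervals did not overlap. In BM Gr-1hi cells there were 0 counts beside 1997 globin counts, with an upper exact limit of 0.185. Car1 made up 0.143 (0.0389 to 0.365) per 100 in the 4 BM libraries and 0.0174 (0.00833 to 0.0319) in the 4 SP libraries. Its counts went the other way, with 4 in BM, 3 of them in library 11, and 10 in SP. The contrast in share again reflects the globin counts and is no separate result for Car1. Libraries of a group were summed for these shares, so the intervals do not cover the spread between libraries.

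**Figure D4:**
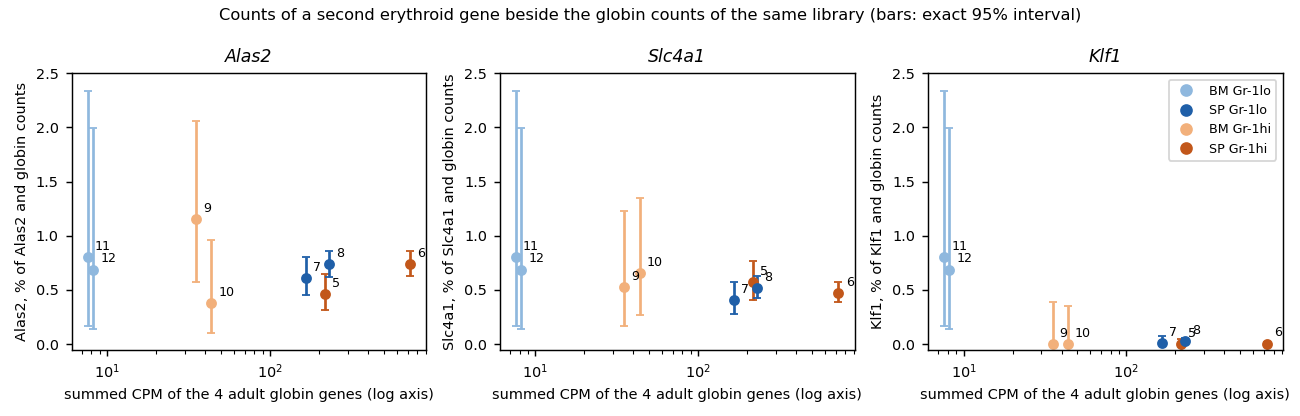
Share of Alas2, Slc4a1 and Klf1 in percent of the counts of that gene and the 4 adult globin genes together, against the summed globin CPM of the library on a log axis, with exact 95% binomial intervals, library numbers and colors for the groups. Alas2 and Slc4a1 stay between 0.377 and 1.16 from left to right, whereas Klf1 is at 0.804 and 0.688 in the BM Gr-1lo libraries and at most 0.0252 in the others.

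Over the 8 libraries, the log2 CPM of the 6 tested members ran closely together, with a Pearson r of 0.965 (Alas2 and Slc4a1) to 0.9999 (Hba-a1 and Hba-a2). These libraries share tissue and sort, so r is a description across 4 groups of 2. Among 13410 other tested genes with a mean of at least 1 CPM, those most like Hbb-bs over the 8 libraries were Gzma (r = 0.975), the granule protease granzyme A of cytotoxic lymphocytes, Bcl2a1a (0.972) and Bcl2a1b (0.963), which encode Bcl2-related survival proteins, the immunoglobulin segment Igkv4-61 (0.965) and Spic (0.961), a transcription factor of red pulp macrophages. Gzma was at 3.80 and 3.99 CPM in SP Gr-1hi, 1.69 and 2.53 in SP Gr-1lo, 0.411 and 0.495 in BM Gr-1hi, and 0.102 and 0.0567 in BM Gr-1lo libraries. Bcl2a1a and Bcl2a1b are near-identical copies and can share reads.

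Markers of other cells moved with the members between the organs. B cell markers, 10 in number, summed to 537 and 362 CPM in SP Gr-1hi, 66.7 and 84.5 in SP Gr-1lo, 16.6 to 20.2 in BM Gr-1hi and 8.17 to 10.2 in BM Gr-1lo libraries. Of these 10 genes, 9 were called higher in SP Gr-1lo and 10 in SP Gr-1hi cells, such as Cd22 (log2 FC 4.89 and 5.30) and Cd79a (3.83 and 4.16). T cell markers, also 10, summed to 117 and 71.9 CPM, 25.6 and 39.5 CPM, 7.18 to 10.6 CPM, and 2.21 to 2.32 CPM, with 10 and 9 called higher, such as Lck (3.98 and 4.33). Their part in the results for the members was not tested. Within the SP Gr-1hi group the direction was opposite, since library 5 stood 1.48-fold above library 6 for B cell markers and 1.63-fold for T cell markers, while library 6 stood 3.36-fold above library 5 for globin.

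Macrophages of the red pulp take up old red cells and recycle their iron, and 10 of their markers were all detected in every library. The sum was 1095 and 933 CPM in SP Gr-1hi, 598 to 659 in BM Gr-1hi, 208 to 222 in SP Gr-1lo and 153 to 178 in BM Gr-1lo libraries, led by the iron exporter Slc40a1, which was at 462 to 825 CPM in Gr-1hi and 20.2 to 31.6 CPM in Gr-1lo cells. In each comparison of SP with BM, 5 of the 10 were called higher and none lower. Beside this, 3.84% of all genes were called higher in Gr-1lo and 14.0% in Gr-1hi cells. Among the 5 were Spic (log2 FC 5.01 in Gr-1lo and 2.80 in Gr-1hi cells) and C1qb (2.40 and 1.33). In Gr-1lo cells the means of Vcam1 (32.0 against 44.9 CPM), Hpgd (13.3 against 17.6 CPM) and Cd163 (0.314 against 0.383 CPM) were lower in SP than in BM. Of 10 platelet markers 5 could be tested, and Pf4, which defines them, had at most 5 counts in any library. Gp6 was called higher in SP (2.55 and 3.42), while Gp1bb, the platelet marker with the highest CPM, was called lower in SP than in BM Gr-1hi cells (-1.28). The sum of the platelet markers was highest in BM Gr-1hi libraries, at 69.3 to 69.4 CPM, of which Gp1bb made up 61.8 and 64.4 CPM, while Itga2b and Gp6 had their highest means in SP Gr-1hi cells. The part of these cells was not tested.

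Of 11 genes for the later steps and the transport of heme synthesis, none was called between SP and BM Gr-1lo cells by edgeR or DESeq2 (2 at an unadjusted p under 0.05), beside 4.06% of all genes. In Gr-1hi cells 2 of 11 were called higher in SP, beside 14.0% of all genes, namely Alad (log2 FC 2.10, SE 0.53, adjusted p = 0.0179 by edgeR) and Cpox (2.03, SE 0.30, adjusted p = 0.00196). The median log2 FC of the 11 genes was -0.10 in Gr-1lo and 0.12 in Gr-1hi cells. Alad makes porphobilinogen and Cpox oxidizes coproporphyrinogen. Alad lost its call without library 5 or 9, and without libraries 5 and 7 together (adjusted p = 0.127).

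Between the subsets these genes were called in both directions. In BM, at 0.05 and 2-fold, 3 of 11 were called higher in Gr-1hi cells (24.2% of all genes) and 6 lower (33.1% of all genes). In SP, 3 were higher and 4 lower (22.3% and 27.4% of all genes). Higher in Gr-1hi cells of both organs were the mitochondrial iron carrier Slc25a37 (log2 FC 2.75 in BM and 1.68 in SP), Ppox (2.00 and 1.66) and the glycine carrier Slc25a38 (1.07 and 1.08). Among those lower in both were Cpox (-5.01 and -2.61), Fech, which inserts the iron (-2.28 and -1.30), and Abcb10 (-1.64 and -1.66). Alad (-3.43) and Uros (-1.004) were called lower in BM, and the adjusted p of all these calls lay between 8.84e-08 and 0.00105 by edgeR. At the stricter thresholds only Alad and Cpox were called, in BM. Slc25a38 in SP was not called without library 5, nor was Uros without library 5, 6, 9 or 12. Alas1, which makes the first heme precursor outside red cells and was named after its values were seen, was at 112 to 284 CPM, with a log2 FC between SP and BM of -0.13 in Gr-1lo and -0.24 in Gr-1hi cells (adjusted p = 0.616 and 0.183).

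**Figure D5:**
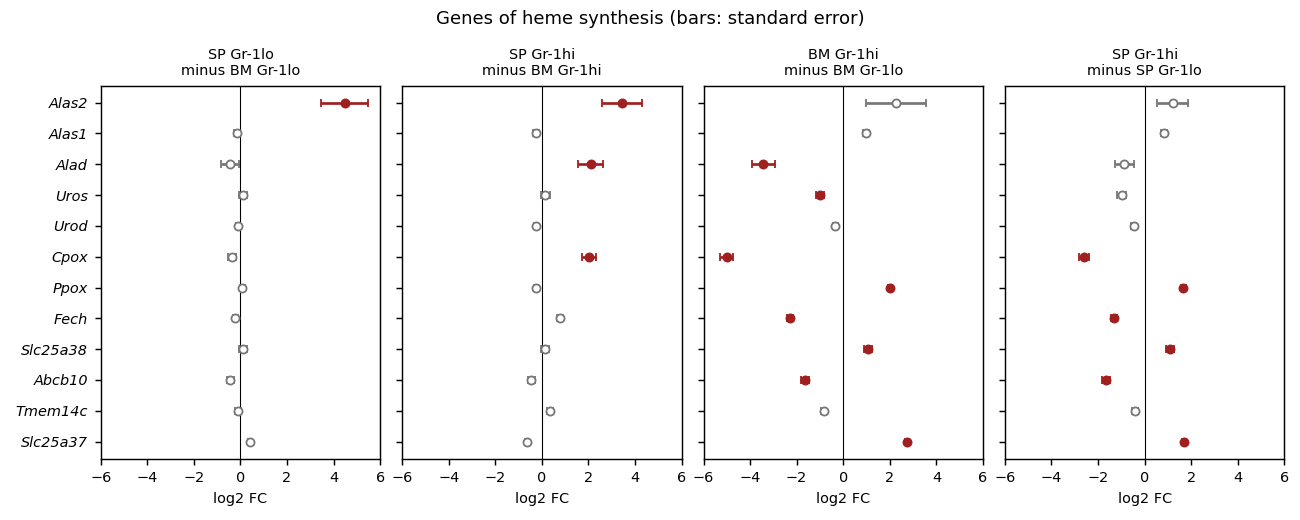
Log2 FC of Alas2, Alas1 and 10 other genes of heme synthesis in the 4 comparisons, with bars of 1 standard error; filled red points passed 0.05 and 2-fold. Alas2 is far right in both comparisons of SP with BM (4.48 and 3.43), where most other genes lie near 0, and the subsets differ in both directions.

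Of 11 regulators of red cell formation 9 could be tested, and none was called between SP and BM Gr-1lo cells by edgeR or DESeq2 (5 at an unadjusted p under 0.05), beside 4.06% of all genes. In Gr-1hi cells 2 were called, beside 15.5% of all genes. Zfpm1, the cofactor of Gata1, was called higher in SP than in BM Gr-1hi cells (log2 FC 2.21, SE 0.28, adjusted p = 0.000934 by edgeR), as was Bcl11a, a repressor of fetal globin (1.58, SE 0.15, adjusted p = 0.000281). Gata1, the principal factor of the erythroid lineage, had 0 to 11 counts and the erythropoietin receptor Epor 0 to 6, so neither was tested. Epor had 12 counts in SP libraries and 1 in BM libraries. Nfe2, which binds globin locus control regions, was at 98.7 to 587 CPM and higher in Gr-1hi than in Gr-1lo cells (2.17 in BM and 1.89 in SP, adjusted p = 5.09e-07 and 2.02e-06), and Lmo2, Ldb1 and Tfrc were at 37.8 to 99.1, 58.2 to 72.3 and 12.5 to 41.9 CPM.

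Genes of the red cell membrane other than Slc4a1 were of low count. Of 15 genes 8 could be tested, with 2 called higher in SP than in BM Gr-1lo cells and 6 in SP than in BM Gr-1hi cells (DESeq2 called 1 and 4), beside 3.84% and 14.0% of all genes. Among the first was the tetraspanin Tspan33 (log2 FC 2.25, SE 0.49, adjusted p = 0.0331 by edgeR). The 6 in Gr-1hi cells were Ermap (3.85), Slc14a1, the urea carrier (3.73), Tspan33 (3.44), Epb42, protein 4.2 (3.04), Sptb, β spectrin (2.43), and Ank1, ankyrin (1.43). Rhag, the Rh-associated glycoprotein, had 12 counts in library 6, 2 in library 8 and 0 in the other 6. Epb41, which is not limited to red cells, was at 93.6 to 169 CPM and was called in neither comparison.

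Single libraries bore on these membrane calls. Without libraries 5 and 7, 2 genes were called higher in Gr-1lo cells and 2 in Gr-1hi cells, where Slc14a1 and Tspan33 passed. Of 8 fits that each left out 1 library, Epb42 was called in 0, Ank1 in 5 (not without 5, 9 or 10), Ermap in 6 (not without 9 or 10) and Sptb in 7 (not without 9). Tspan33 was called in 3 of 8 in Gr-1lo cells and in 7 of 8 in Gr-1hi cells. Median log2 FC of the 8 tested genes was 1.84 in Gr-1lo cells, or 1.02 with genes at 0 counts in a group set to their bound, and 2.76 in Gr-1hi cells.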

How the data were processed

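Per the labels and the study's methods, RNA of sorted CD11b+Gr-1hi and CD11b+Gr-1lo cells was made into stranded mRNA libraries, and reads were aligned with STAR to GRCm38 and counted per gene with featureCounts. The authors deposited these as raw counts for 54188 genes and 8 libraries, without normalization. How reads that match several genes were treated is not given in the sources used here. All 8 columns were used, and groups came from the labels.

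The analysis used edgeR 4.0.16 under R 4.3.3. Genes passing filterByExpr were scaled by TMM and fitted in a robust quasi-likelihood model with 1 term per group, which left 4 residual degrees of freedom, with Benjamini-Hochberg adjustment across 17650 genes. Calls used the thresholds of the study, namely 0.05 for the adjusted p with 2-fold or more between organs and for the interaction, and under 0.01 with more than 8-fold between subsets. SE is the absolute log2 FC divided by the square root of F. CPM use TMM-scaled library sizes. TPM use exon lengths of GENCODE release M21, which lacked 241 genes. Intervals of shares are exact binomial at 95%, and a count of 0 allows up to 3 counts. The procedure was tested on simulated data.

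The members and lists were chosen with earlier results of these data known, and lists were written from general knowledge. The text names all members and, from each list, the 4 genes of highest CPM and those called (the 4 of largest change where more were called), with some others named by what they are known for or after their values were seen. Some genes of these lists are counted but not reported here by name. It also names the 5 genes most like Hbb-bs. The same search for Klf1 was not made, since its counts were 0 to 5. The study describes independent biological replicates and autologous BM cells, but no label says which libraries share a mouse, so groups were treated as independent and p-values measure the spread between these libraries. Alternatives were RLE and upper-quartile scaling, totals without globin genes, DESeq2 1.42.0, no filter on low counts, a fit of the 4 libraries compared, edgeR's exact test on quantile-normalized TPM, summed paralogs, other thresholds, and leaving out libraries.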

Additional observations from a re-analysis of the deposited data

Results flagged for a closer look

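The difference between Gr-1hi and Gr-1lo cells was itself unlike in SP and BM for 6 genes of the erythroid lists and for no member. These interactions were called at 0.05 and 2-fold by edgeR's quasi-likelihood test, beside 9.74% of all genes tested (7.74% positive and 2.00% negative). By list they were 3 of 11 tested genes of heme synthesis, 1 of 9 regulators, 1 of 8 membrane genes and 1 of 10 enzymes and other proteins. Cpox was lower in Gr-1hi cells by less in SP than in BM, with an interaction of 2.39 on the log2 scale (adjusted p = 0.00547). The same held for Alad, at 2.56 (adjusted p = 0.0353), a call lost without library 5, 7, 8, 9, 11 or 12 and without libraries 5 and 7 together (adjusted p = 0.164). Tmcc2 stood at 1.99 (adjusted p = 0.00481) and the globin repressor Bcl11a at 1.87 (adjusted p = 0.00222). Slc14a1 was higher in Gr-1hi than in Gr-1lo cells of SP and lower in those of BM, with an interaction of 3.71 (adjusted p = 0.00579). Its difference in SP, 1.27 on the log2 scale, was not called without library 5 (0.84) or 7 (1.03), nor without both (0.61). The iron carrier Slc25a37 had an interaction of -1.06 (adjusted p = 0.00207), from a larger difference in BM than in SP. Apart from Alad, the interaction of each of these 6 was called in all 8 fits that left out 1 library. Groups of 2 libraries are too small for a search for outlying samples.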

How the results depend on the processing

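No paired analysis was possible because the libraries are numbered 5 to 12 with no number shared between groups; the study describes the BM cells as autologous, but no label ties a library to a mouse. The 6 tested members were called higher in SP Gr-1lo than in BM Gr-1lo cells, but 2 were with no filter on low counts (globin genes at adjusted p = 0.0530 to 0.0811), and 0 to 6 when 1 library was left out. In Gr-1hi cells 3 of 6 were called in a model of these 4 libraries alone (not Hbb-bs, Hbb-bt or Alas2), 5 with no filter (not Hbb-bs, adjusted p = 0.0533) and 5 to 6 when 1 library was left out. The exact test on TPM did not call Alas2 in Gr-1lo (log2 FC 2.70) or Gr-1hi cells (2.81, adjusted p = 0.535) and gave no value for Slc4a1. Between subsets 0 members were called, against 4 in BM and 1 in SP at 0.05 and 2-fold. The interaction called 0, and 0 to 4 when 1 library was left out, the 4 without library 6. Leaving out 1 library, the log2 FC between subsets in SP ran from -0.046 to 1.90 for Hbb-bs and from -0.47 to 1.95 for Alas2, reversed without library 6 and highest without library 5. The cause was not tested. Over all alternatives, 455 values of members kept their direction and their side of the threshold, 33 lost a call, 4 gained one and 2 reversed. With 2 libraries a group and 0 to 11 counts of Alas2, Slc4a1 and Klf1 in BM libraries, small differences were not detectable.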

Other observations

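A further list held 13 genes for enzymes and other proteins of maturing red cells. Of 10 that could be tested, none was called between SP and BM Gr-1lo cells by edgeR (2 at an unadjusted p under 0.05, and 1 called by DESeq2). In Gr-1hi cells, 2 were called higher in SP, beside 14.0% of all genes, the carbonic anhydrase Car2 (log2 FC 2.11, adjusted p = 0.00225 by edgeR) and Tmcc2 (1.67, adjusted p = 0.00164). Car2 was at 1.69 to 1.72 CPM in SP Gr-1hi and 0.336 to 0.454 CPM in BM Gr-1hi libraries. Between subsets, the peroxiredoxin Prdx2 was called lower in BM Gr-1hi than in BM Gr-1lo cells (-3.36, adjusted p = 8.90e-08), as was Tmcc2 (-4.10, adjusted p = 4.96e-07). Prdx2 was at 6.58 to 12.7 CPM in Gr-1hi and at 70.1 to 72.9 CPM in Gr-1lo libraries. The ubiquitin ligase Mkrn1, the exportin Xpo7 and Bpgm, which makes the effector of hemoglobin 2,3-bisphosphoglycerate, were at 76.4 to 187, 26.0 to 53.6 and 4.46 to 9.58 CPM.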
